A study of Mus musculus with 4 samples.

Results

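The genes described here are 43 mitotic genes of the kinetochore, the spindle checkpoint, the chromosomal passenger complex, condensin and the spindle and cytokinesis machinery, kinesins of the Kif family and cyclins left aside. They were taken from a list of symbols and found on the array through the RefSeq accession of each probe. All 43 were on the array, among 20284 named genes, and Sgo1 is given here under its older name Sgol1, as in the list. The values come from 1 Agilent one-colour microarray for each of 4 bone marrow fractions, sorted from 8-week-old female C57BL6 mice with no treatment or transgene named. LT-HSC were the long-term haematopoietic stem cells (CD34-, c-Kit+, Sca1+, lineage-), ST-HSC the short-term stem cells (CD34+, c-Kit+, Sca1+, lineage-), progenitors the c-Kit+ lineage- cells, and Lin+ the differentiated lineage+ cells. A protocol text shared by the samples also calls the progenitors Sca1- and adds lineage+ cells in its wording, so their gate is uncertain. How many mice gave each fraction is not given in the sources used here.

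In mitosis, condensin and topoisomerase compact the chromosomes, and kinetochores built on centromeres bind them to spindle microtubules. The spindle checkpoint holds back the anaphase-promoting complex until every kinetochore is attached, after which separase cuts cohesin, the spindle midzone forms and the cell divides. Transcripts of these genes build up late in the cell cycle and are low in resting cells, and long-term stem cells of adult marrow are known to be mostly quiescent while short-term stem cells and progenitors cycle more.

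Many genes of this kind are known to carry CCAAT boxes, bound by NF-Y, close to a short element (TTTGAA or TTCGAA) bound by the DREAM and MuvB complexes. The promoter letters are printed because they are a property that the choice of genes did not use and that most of the genes hold. RefSeq promoter windows of build GRCm38.p6, from 250 bases before to 50 bases after an annotated start, were at hand for 37 of the 43 genes. The 6 without an entry were Aurkb, Cdc25c, Incenp, Smc4, Spc24 and Tpx2. Shown first are 130 bases before the start of 5 genes with both motifs and of Pttg1, which has neither and was the 1 gene measured lower in ST-HSC than in LT-HSC. They lie at chr10:69352913-69353042 on the minus strand (Cdk1), chr4:118437344-118437473 on the minus strand (Cdc20), chr2:164769799-164769928 on the plus strand (Ube2c), chr11:99024190-99024319 on the minus strand (Top2a), chr15:102296163-102296292 on the plus strand (Espl1) and chr11:43425982-43426111 on the minus strand (Pttg1). Each is written 5′ to 3′ in the direction of its gene and ends at the base before the start, and capitals mark CCAAT or its reverse complement ATTGG, as well as TTTGAA or its reverse complement TTCAAA, and TTCGAA, which is its own reverse complement.
Cdk1: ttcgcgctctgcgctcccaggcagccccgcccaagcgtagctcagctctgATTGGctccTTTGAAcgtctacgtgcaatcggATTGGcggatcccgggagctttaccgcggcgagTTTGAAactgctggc
Cdc20: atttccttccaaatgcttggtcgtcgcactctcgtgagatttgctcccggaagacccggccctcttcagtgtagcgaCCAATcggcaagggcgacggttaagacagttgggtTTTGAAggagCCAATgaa
Ube2c: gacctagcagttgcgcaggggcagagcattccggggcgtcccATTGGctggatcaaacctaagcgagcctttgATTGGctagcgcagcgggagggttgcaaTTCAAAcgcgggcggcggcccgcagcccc
Top2a: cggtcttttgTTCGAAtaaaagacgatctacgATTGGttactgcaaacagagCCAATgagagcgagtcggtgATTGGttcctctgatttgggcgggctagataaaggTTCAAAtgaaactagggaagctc
Espl1: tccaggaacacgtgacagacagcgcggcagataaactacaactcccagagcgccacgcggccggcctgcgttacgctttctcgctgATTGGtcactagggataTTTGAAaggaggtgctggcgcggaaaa
Pttg1: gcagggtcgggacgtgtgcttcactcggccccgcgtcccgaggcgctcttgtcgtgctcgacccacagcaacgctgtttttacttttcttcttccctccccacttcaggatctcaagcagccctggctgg

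CCAAT was found on either strand in 29 of the 37 genes (78.4%), against 41.1% of all 27025 genes with such windows. TTTGAA was found in 25 of the 37 (67.6%) against 20.2%, and TTCGAA in 4 (10.8%) against 1.8%. Either 6-base motif within 100 bases before to 50 after a start was present in 26 genes (70.3%), against 9.9% of all genes. Both a CCAAT and a 6-base motif stood in 25 genes (67.6%), against 8.6%. No match of any kind was found in Birc5, Mad2l1, Ncaph, Nuf2, Nusap1 and Pttg1, which says only that these letters are not in those windows. These are matches of letters and no binding was measured.

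**Figure D1:**
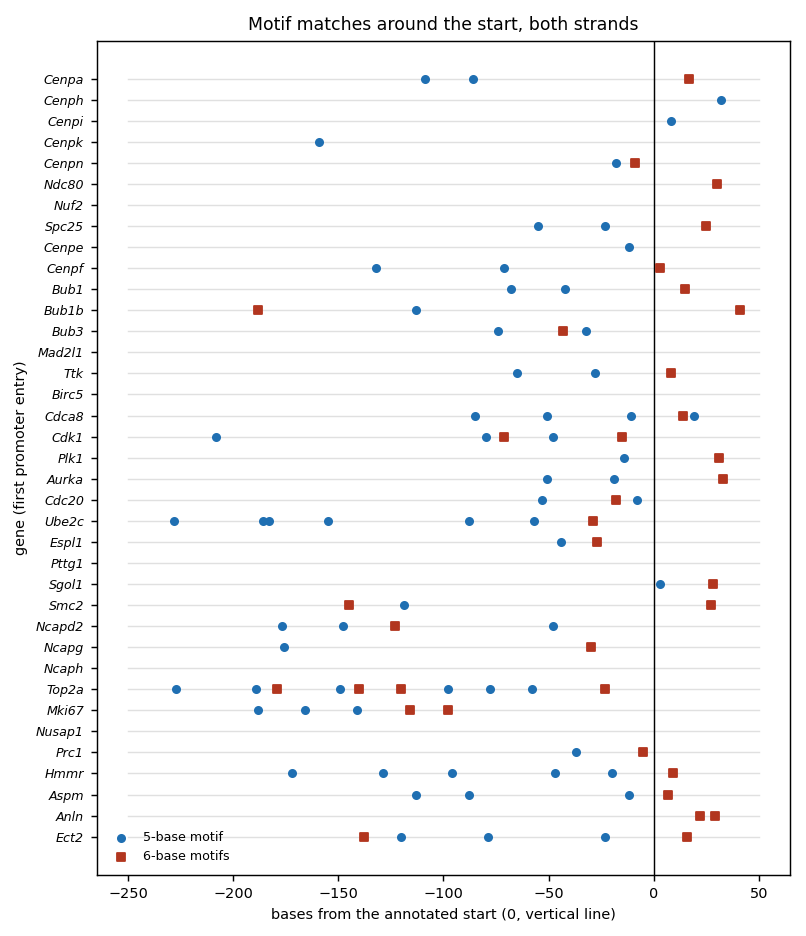
Positions of CCAAT (5-base motif, blue circles) and of TTTGAA or TTCGAA (6-base motifs, red squares) in the first promoter entry of the 37 genes that have one, in bases from the annotated start. The red squares gather around the start, with 26 of 37 genes holding one from 100 bases before it to 50 after when all entries of a gene are counted, while the blue circles lie mostly before it.

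A level is the log2 of the processed signal over the 75th percentile of its array, for the brightest probe of each gene. Levels of different genes come from different probes and were not set against each other. Differences are of 1 gene between fractions, and only lists of cell type markers were summed over their probes, each sum being compared between fractions. The error given with ± is the spot error that the scanner software estimated, about 0.20 for the log2 difference of a well-measured gene. It covers neither animals nor sorts. With 1 array per fraction there is no replicate and no test, and a difference is called at 2-fold or more, provided 1 or both of the spots were well above background. Where 1 side was not well above background, the difference is a bound, taken against the lowest signal among probes well above background on that array or against the dim probe's own signal, whichever was higher. On the 4 arrays, 40.9% to 45.9% of 55678 probes were well above background, no probe was saturated, and the 75th percentile of signal was lowest for the progenitors (137 intensity units) and 192 to 230 elsewhere. Of the 43 mitotic genes, 40 were well above background on all 4 arrays. The exceptions, Cenpf, Ttk and Ncapg, missed it in LT-HSC and progenitors.

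The fractions carried the transcripts their labels name, with limits. All 8 long-term stem cell markers listed were well above background in LT-HSC, where their summed signal was 142 times the 75th percentile, against 33.7 and 30.6 in ST-HSC and progenitors and 2.13 in Lin+. Cd34, whose protein separates the stem cell gates, had RNA levels of 7.34 in LT-HSC and 8.53 in ST-HSC, then 7.51 in progenitors and 3.26 in Lin+, so its transcript was not absent from the CD34- fraction. Kit stood at 5.63, 5.004, 4.42 and 1.67 in the same order, and was lowest in Lin+. Levels of Ly6a, which encodes Sca1, were 4.52, 3.12, 2.28 and 4.51, and those of Ptprc, the CD45 gene, were −0.08, 0.73, −1.15 and 2.36. In Lin+ the summed signal over the 75th percentile was 4479 for the 7 erythroid markers on the array, 7818 for 7 neutrophil markers and 407 for 8 B cell markers. The corresponding sums in progenitors were 74.7, 3660 and 21.9. For T and NK cell markers the sum was 162 in Lin+ and 180 in progenitors, and for megakaryocyte markers 9.06 and 277. The T and NK sums do not follow most of their list. All 7 of these markers were well above background in Lin+ and 3 in progenitors. From progenitors to Lin+, 5 of the 7 were called higher and 1 lower, beside 14.5% and 26.4% of all genes. Lin+ and progenitors each held RNA of several lineages at once. In such bulk samples a lower share of dividing cells and less RNA per dividing cell cannot be told apart.

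Most of the mitotic genes were higher in ST-HSC than in LT-HSC. Of the 43, 37 were at least 2-fold higher and 0 were at least 2-fold lower, where 5.81% of all genes compared were higher and 9.01% were lower. The median difference of the 40 measured genes was 1.77 on the log2 scale, against 0.03 over all genes measured. From ST-HSC to progenitors the picture split: 14 mitotic genes dropped by 2-fold or more and 0 gained as much, beside 10.2% and 10.0% of all genes, and their median was −0.50 against 0.21. With spike-in controls set equal, 22 mitotic genes were lower at this step and their median was −1.13, while 4.04% of all genes were higher, 25.2% were lower and the median gene lay at −0.42. A gene that is level here is therefore level relative to the scaling used. From progenitors to Lin+, 20 were higher and 0 lower, with 14.5% and 26.4% of all genes, and their median was 0.85 against −0.42. With spike-ins 29 were higher and their median was 1.45, beside 25.6% of all genes higher and 10.4% lower, and the balance of all genes also turned over detected probes (20.7% higher and 14.7% lower) and with the median gene at 0 (21.3% and 14.1%). Between the ends, 38 were higher in Lin+ than in LT-HSC and 1 was lower, with 16.1% and 23.2% of all genes, and their median was 2.25 against −0.21. Neighbouring steps share an array, so a high value on the ST-HSC array enters the first step as a gain and the next as a loss. The comparison of Lin+ with LT-HSC uses neither of the middle arrays.

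**Figure D2:**
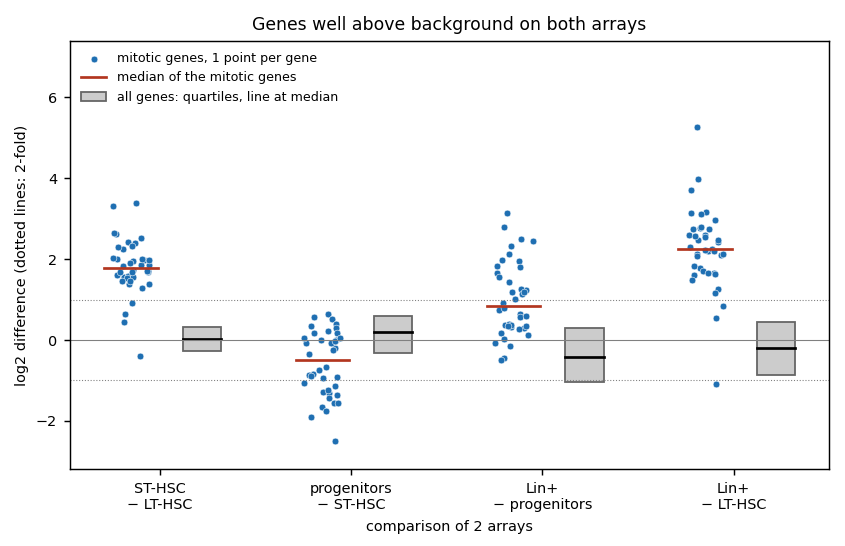
Log2 differences of the mitotic genes well above background on both arrays (blue points, 1 per gene, red line at their median) in 4 comparisons of 1 array with 1 array, beside the quartiles and median of all genes (grey boxes). The points lie above the grey box in the first and the last comparison (medians 1.77 and 2.25), except Pttg1 in the first (−0.38) and Aurkb in the last (−1.09), and spread from −2.48 to 0.64 between ST-HSC and progenitors.

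LT-HSC was the lowest fraction for 38 of the 40 genes well above background everywhere. The exceptions were Pttg1, lowest in ST-HSC, and Aurkb, lowest in progenitors. Lin+ was the highest fraction for 34 of all 43 genes, and for 31 of the 40 well above background everywhere. How often any gene is lowest in LT-HSC or highest in Lin+ was not computed, so these counts describe the mitotic genes only. ST-HSC was highest for Cenpi, Bub1, Bub1b, Mad2l1, Aurkb and Ect2, and the progenitors for Cenph, Spc24 and Bub3. Many of these leads were under the spot error of about 0.20 and do not settle a rank. Lin+ minus ST-HSC was −0.04 for Bub1, −0.07 for Bub1b, −0.13 for Mad2l1 and −0.17 for Ect2. Progenitors led ST-HSC by 0.01 for Cenph, and Lin+ minus progenitors was −0.15 for Bub3. The count of genes highest in progenitors depends on the scaling: it was 0 or 1 with spike-in, quantile or detected-probe scaling or with another background correction. Members of 1 complex did not always share a course, as the genes show when taken by role.

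**Figure D3:**
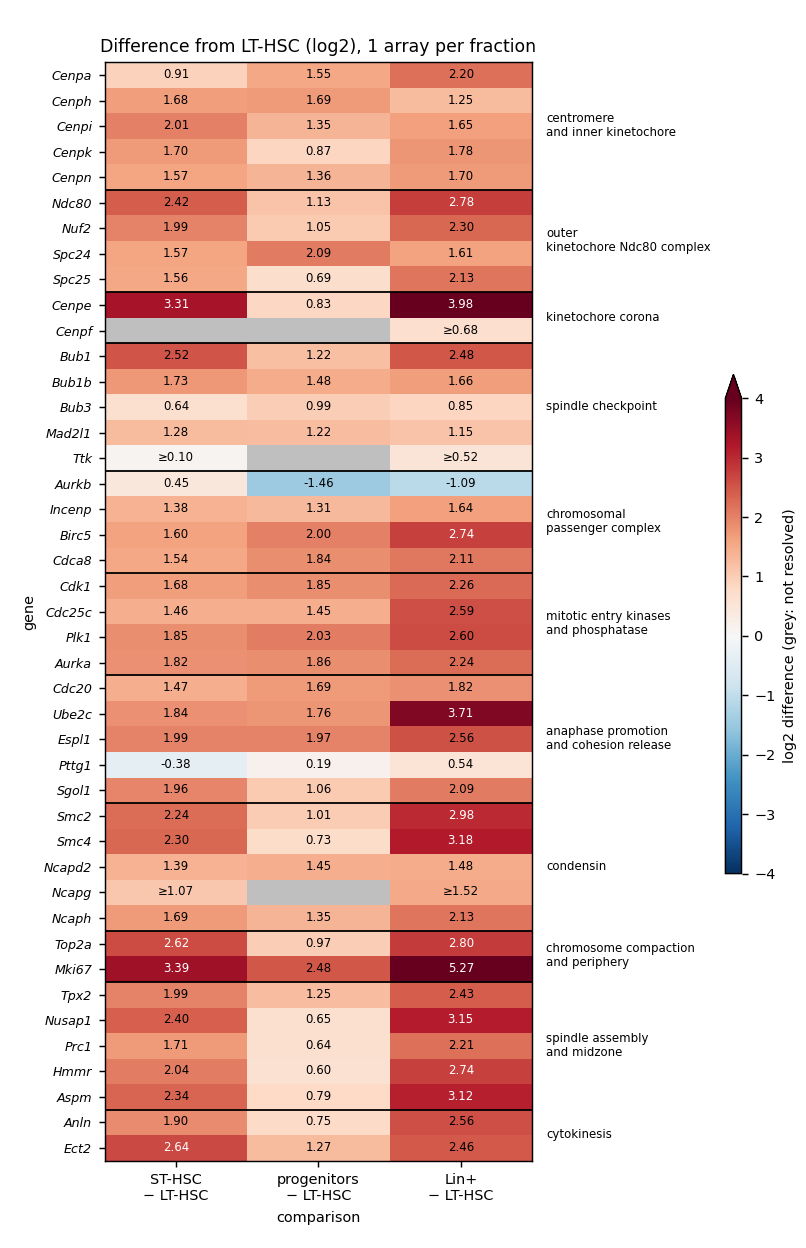
Log2 difference of each mitotic gene from LT-HSC in ST-HSC, progenitors and Lin+, with 1 array per fraction, rows grouped by role and values printed (≥ marks a bound, grey a difference that could not be resolved, and colours end at 4). Mki67 and Cenpe are the darkest rows in Lin+ (5.27 and 3.98), and the middle column is pale for condensin and spindle genes such as Smc4 (0.73) and Hmmr (0.60).

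At the centromere, Cenpa encodes the histone H3 variant that marks where the kinetochore is built. Its levels climbed through the order of fractions, from 2.41 in LT-HSC over 3.32 in ST-HSC and 3.96 in progenitors to 4.62 in Lin+, each step being under 2-fold while the ends differed 4.61-fold (2.20 ± 0.20). Its step from ST-HSC to progenitors (0.64) was 0.24 once the trend over genomic span, described below, was subtracted. That step also rests on the scaling, which moved the median gene there from 0.21 to −0.42 with spike-ins. Cenpn, whose product reads CENP-A nucleosomes, stood at −0.79, 0.78, 0.57 and 0.91 in that order. Its gain of 1.57 ± 0.22 lay at the first step and the 3 later fractions were within 0.34 of each other. Cenph, Cenpi and Cenpk encode subunits of the inner kinetochore network that links CENP-A chromatin to the microtubule-binding layer. Levels of Cenph were 1.39, 3.07, 3.08 and 2.64, those of Cenpi −0.60, 1.41, 0.75 and 1.06, and those of Cenpk 1.34, 3.04, 2.21 and 3.12. The first step was 2-fold or more for these 3 genes (1.68, 2.01 and 1.70), and no later step was. In this group 4 of 5 genes were called higher in ST-HSC than in LT-HSC, where 5.81% of all genes were. At either of the later steps 0 of 5 were called. Of all genes, 10.0% were higher and 10.2% lower at the second step, and 14.5% and 26.4% at the third. A step within 2-fold was thus common to most genes at each.

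The 4 genes of the Ndc80 complex, the main microtubule coupler of the outer kinetochore, were all at least 2-fold higher in ST-HSC than in LT-HSC. Of all genes, 5.81% were. Ndc80 stood at −2.18 in LT-HSC and 0.23 in ST-HSC, then −1.05 in progenitors and 0.60 in Lin+. It was 5.34-fold higher in ST-HSC (2.42 ± 0.30), 2.43-fold lower in progenitors (−1.28 ± 0.23) and 3.13-fold higher again in Lin+ (1.65 ± 0.23). The calls at the second and the third step were lost with another background correction of this dim probe. Nuf2, whose product pairs with the Ndc80 protein at the microtubule end, stood at −0.64, 1.35, 0.41 and 1.66, and its drop in progenitors (−0.94 ± 0.21) was just under 2-fold. Spc25 followed the same course, with levels of 3.60, 5.16, 4.29 and 5.73. Spc24, the partner of Spc25 at the chromosome end of the complex, had its highest level in progenitors instead, with 1.25, 2.83, 3.35 and 2.86. Within 1 complex, then, the step from ST-HSC to progenitors ran from −1.28 to 0.52.

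Cenpe encodes a kinetochore motor that carries chromosomes to the spindle equator. Its levels were 0.11 in LT-HSC and 3.42 in ST-HSC, then 0.94 in progenitors and 4.09 in Lin+. The drop in progenitors, 5.6-fold (−2.48 ± 0.21), was larger than that of any other of the 40 measured genes, and it stood between gains of 9.93-fold (3.31 ± 0.21) and 8.88-fold (3.15 ± 0.21). Cenpf, a large protein of the same outer layer, was dim throughout, at −4.90, −2.99, −4.87 and −2.26. Only ST-HSC and Lin+ were well above background there, and the bounds of at least 1.6-fold from LT-HSC and at least 1.52-fold from progenitors to Lin+ did not reach a call.

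Among checkpoint genes, Bub1 encodes a kinase that recruits the other checkpoint proteins to the kinetochore. It stood at −0.61 in LT-HSC and 1.90 in ST-HSC, then 0.60 in progenitors and 1.87 in Lin+, so ST-HSC and Lin+ differed by less than the spot error (−0.04 ± 0.20) and progenitors lay 2.46-fold under ST-HSC. Bub1b (BubR1) and Mad2l1 (Mad2) encode inhibitors that bind Cdc20. Their levels were 0.64, 2.37, 2.12 and 2.30 for Bub1b and 2.99, 4.27, 4.22 and 4.15 for Mad2l1. Both were called at the first step (1.73 ± 0.21 and 1.28 ± 0.20), and no difference between the 3 later fractions exceeded 0.25. Bub3, the adaptor that brings Bub1 and BubR1 to the kinetochore, moved less than 2-fold in all 6 pairs of fractions, with levels of 4.38, 5.02, 5.38 and 5.23. Ttk, which encodes the Mps1 kinase at the head of the checkpoint, was not well above background in LT-HSC or progenitors. Its levels were −2.42, −2.32, −3.67 and −1.90, and its bound between progenitors and Lin+ was at least 1.95-fold.

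Aurkb went against its own complex. The chromosomal passenger complex corrects faulty kinetochore attachments: Aurkb encodes its kinase, Incenp its scaffold, and Birc5 (survivin) and Cdca8 (borealin) the subunits that place it on chromatin. Levels of Aurkb were −0.90 in LT-HSC and −0.45 in ST-HSC, then −2.36 in progenitors and −1.99 in Lin+. It was the only one of the 43 genes called lower in Lin+ than in LT-HSC (2.13-fold, −1.09 ± 0.27), and that call was lost with spike-in scaling, with the median gene set to 0, with the other background correction and after subtraction of the trend over genomic span. Its drop from ST-HSC to progenitors was 3.77-fold (−1.91 ± 0.35), and that call too was lost with the other background correction. The probe was dim, with signals of 103, 159, 26.7 and 57.9 intensity units, and it was the only probe of the gene. Incenp stood at 4.92, 6.30, 6.23 and 6.56, Birc5 at 5.10, 6.70, 7.10 and 7.84, and Cdca8 at 4.69, 6.24, 6.54 and 6.81. These 3 were 2.6-fold to 3.04-fold higher in ST-HSC than in LT-HSC, differed by under 2-fold between ST-HSC and progenitors, and were highest in Lin+.

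The genes of mitotic entry had the most level course across the middle fractions. Cdk1 encodes the kinase that drives entry, Cdc25c a phosphatase that activates it, and Plk1 and Aurka kinases of the centrosome and spindle. Cdk1 stood at 1.35, 3.03, 3.20 and 3.61 in LT-HSC, ST-HSC, progenitors and Lin+, Plk1 at 3.47, 5.32, 5.50 and 6.07, and Aurka at 3.04, 4.86, 4.90 and 5.28. The step from ST-HSC to progenitors was between −0.003 and 0.18 for all 4 genes, under the spot error of each, after first steps of 1.46 to 1.85. Cdc25c, at −2.09, −0.64, −0.64 and 0.50, was the 1 gene of this group called again at the last step (2.2-fold, 1.14 ± 0.22), a call lost with the other background correction, as was its first step.

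Genes of anaphase differed among themselves at the first step, from −0.38 to 1.99. Cdc20 activates the anaphase-promoting complex and Ube2c is a ubiquitin-conjugating enzyme that works with it. Cdc20 stood at 4.47, 5.94, 6.16 and 6.29, with its gain at the first step (1.47 ± 0.20). Ube2c stood at 2.50, 4.35, 4.26 and 6.21, so it was level between ST-HSC and progenitors (−0.08 ± 0.20) and 3.86-fold higher again in Lin+ (1.95 ± 0.20), 13.1-fold over LT-HSC in all. Espl1, the separase gene, stood at −0.61, 1.37, 1.36 and 1.94 and resembled the mitotic entry genes in its steps (1.99, −0.02 and 0.59). Pttg1, the gene of the separase inhibitor securin, was at 4.89 in LT-HSC and 4.51 in ST-HSC, then 5.08 in progenitors and 5.43 in Lin+ and was called in none of the 6 pairs. A second and dimmer Pttg1 probe, not well above background in LT-HSC, read −3.35, −2.68, −1.62 and −1.73, so the direction of the first step rests on the brightest probe. Sgol1, whose product shields centromeric cohesin, stood at 1.86, 3.82, 2.92 and 3.94 and fell short of 2-fold in progenitors (−0.90 ± 0.20).

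All 5 condensin genes were called higher in ST-HSC than in LT-HSC, where 5.81% of all genes were, and they parted in progenitors. Smc2 and Smc4 encode the ATPase arms that all condensin shares. Smc4 stood at 1.72 in LT-HSC and 4.02 in ST-HSC, then 2.45 in progenitors and 4.90 in Lin+, with steps of 4.93-fold up, 2.96-fold down and 5.43-fold up. Smc2 stood at 0.88, 3.12, 1.89 and 3.86 with the same order of steps (2.24, −1.23 and 1.97). Ncapd2, Ncapg and Ncaph encode the other subunits of condensin I. Ncapd2 did not share the drop: it stood at 5.01, 6.40, 6.46 and 6.49, and the 3 later fractions lay within 0.09 of each other. Ncaph lay between, with 2.87, 4.56, 4.22 and 5.003. Ncapg was well above background only in ST-HSC and Lin+, at −4.75, −1.87, −4.74 and −1.42, so its steps are bounds of at least 2.1-fold up, 2.0-fold down and 2.73-fold up. The first and the second of these bounds stand at the edge of a call, and all 4 of its calls were lost with the other background correction.

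Top2a encodes the topoisomerase that untangles chromosomes as condensin compacts them, and Mki67 encodes the Ki-67 protein that coats mitotic chromosomes and is widely used to mark dividing cells. Top2a stood at 0.56 in LT-HSC and 3.18 in ST-HSC, then 1.54 in progenitors and 3.36 in Lin+. Its steps were 6.14-fold up (2.62 ± 0.21), 3.12-fold down (−1.64 ± 0.20) and 3.55-fold up (1.83 ± 0.20), and its progenitor level lay 1.97-fold over that of LT-HSC. Mki67 stood at 1.51, 4.89, 3.99 and 6.78 and had the largest difference between the ends among the 40 measured genes, 38.6-fold (5.27 ± 0.20).

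Mki67 also showed how far 2 probes of 1 gene can part on the progenitor array. Its second probe read 1.71 in LT-HSC and 5.15 in ST-HSC, then 2.84 in progenitors and 6.97 in Lin+. The probes matched within 0.06 at the first step and within 0.01 between the ends, but the step from ST-HSC to progenitors was −0.91 on the brightest probe and −2.31 on the other, a gap of 1.40. Of the 7 mitotic genes with at least 2 probes well above background everywhere, this was the widest gap at that step, and the median gap was 0.13. Over 2480 genes with such probe pairs, the gap at that step passed 2-fold in 8.27%, against 2.02% at the first step and 12.6% between Lin+ and LT-HSC. Probes of Cenpk, Incenp and Ube2c ran nearly together. Mad2l1's 3 probes gave 0.90 to 1.28 at the first step, and Birc5's 3 probes gave 1.60 to 1.76.

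**Figure D4:**
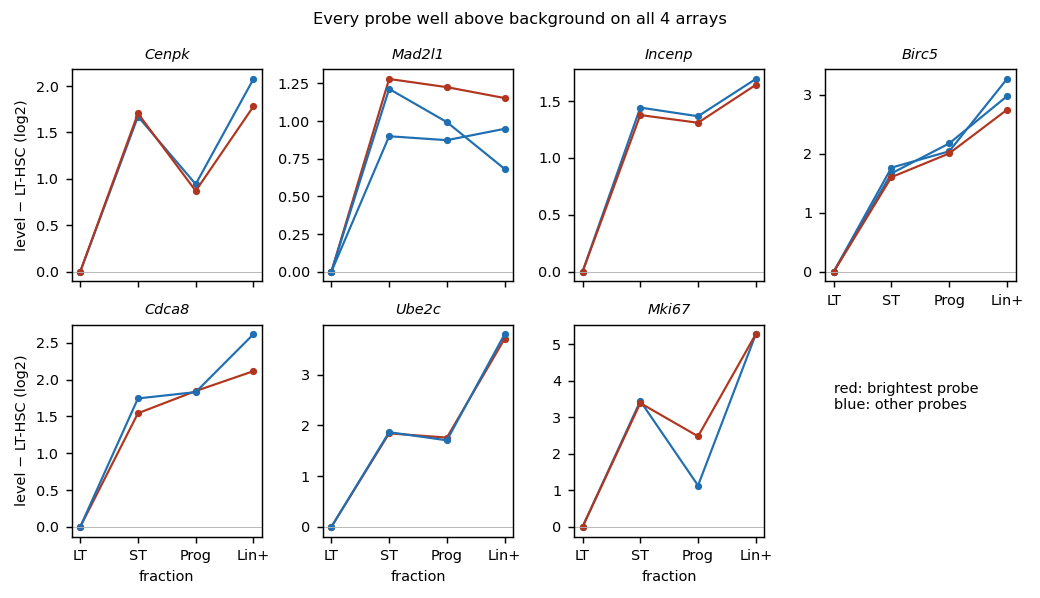
Level minus the LT-HSC level (log2) of every probe well above background on all 4 arrays, for the 7 mitotic genes with at least 2 such probes, across LT-HSC (LT), ST-HSC (ST), progenitors (Prog) and Lin+. Red is the brightest probe, used for all other values, and the Mki67 probes meet at ST-HSC and Lin+ and part at the progenitors by 1.40 in their step from ST-HSC.

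Among role groups with more than 1 measured gene, the spindle genes had the lowest median step from ST-HSC to progenitors. Tpx2 activates Aurora A and seeds microtubules near chromatin, Nusap1 bundles spindle microtubules, Prc1 crosslinks the midzone, Hmmr binds spindle microtubules and Aspm focuses spindle poles. All 5 were called higher at the first step and at the last, beside 5.81% and 14.5% of all genes. In progenitors 4 of 5 were called lower than in ST-HSC, beside 10.2% of all genes, with a group median of −1.43 at that step. Nusap1 stood at 1.46 in LT-HSC and 3.86 in ST-HSC, then 2.11 in progenitors and 4.62 in Lin+, and its drop was 3.36-fold (−1.75 ± 0.20). Levels of Hmmr were 0.24, 2.28, 0.84 and 2.98, and those of Aspm −0.04, 2.30, 0.76 and 3.08. Prc1 stood at 3.30, 5.01, 3.94 and 5.51, with a drop close to the threshold (−1.07 ± 0.20), and Tpx2 at 1.18, 3.18, 2.43 and 3.61, with a drop that missed it (−0.75 ± 0.20). Of the cytokinesis genes, Anln encodes the scaffold anillin and Ect2 the exchange factor that activates RhoA at the division plane. Anln stood at 0.87, 2.77, 1.63 and 3.44 and Ect2 at 0.50, 3.14, 1.77 and 2.96, and both were called up, down and up at the 3 steps.

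In all, 13 of the 43 genes passed 2-fold upward, then downward, then upward along the order of fractions, where 0.826% of the 11746 genes that could be compared at all 3 steps did so. They were Ndc80, Cenpe, Bub1, Smc2, Smc4, Ncapg, Top2a, Nusap1, Prc1, Hmmr, Aspm, Anln and Ect2. With the other background correction Ndc80 and Ncapg no longer met this, and with the span trend subtracted Anln and Ncapg did not. Another 24 passed 2-fold at the first step and stayed within 2-fold from ST-HSC to progenitors. Of those, 17 also stayed within 2-fold from progenitors to Lin+, among them Cdk1, Plk1, Aurka, Cdc20, Bub1b, Mad2l1, Ncapd2 and the 4 inner kinetochore genes Cenph, Cenpi, Cenpk and Cenpn. The shares of all genes with these 2 courses were not computed. At the first step 5.81% of all genes were called higher. From ST-HSC to progenitors 10.0% were called higher and 10.2% lower, so staying within 2-fold there was common to most genes.

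These courses ran with the length of the genes. On the progenitor array the signal of all genes followed the stretch of genome that a gene spans, from its start to its end with introns. Ordered into 5 equal groups from shortest to longest span, all genes had median differences between progenitors and ST-HSC of 0.42, 0.33, 0.19, 0.01 and −0.15. The mitotic genes in these groups had medians of 0.08, 0.27, −0.04, −1.19 and −2.48, with 6, 6, 12, 18 and 1 genes in them. Bounds were taken at their value and the unresolved Cenpf at 0. Of the 14 genes called lower, 11 lay in the second longest group, which held 18 of the 43 mitotic genes. The share of all genes called lower within a span group was not computed. Across the 40 measured mitotic genes, Spearman's rho with span was −0.66 at this step, against −0.28 across 11193 genes. It was 0.71 against 0.06 from LT-HSC to ST-HSC, 0.51 against 0.18 from progenitors to Lin+, and 0.42 against 0.03 between the ends. These are correlations across genes that share their arrays, given as descriptions.

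Cut at the middle of their own order, the 20 shorter mitotic genes had a median of 0.03 between progenitors and ST-HSC, with 2 called lower, and the 20 longer a median of −1.19, with 11 called lower. Over all genes of any span, 10.2% were called lower there. At the first step the medians were 1.57 for the shorter and 2.14 for the longer. When the running median of all genes over span was subtracted, the medians at the progenitor step were −0.23 for the shorter and −1.15 for the longer mitotic genes. With that subtraction 17 mitotic genes were called lower in progenitors, 7.25% of all genes being higher and 12.2% lower, and their median was −0.54. Anln lost its call and Nuf2, Spc25, Sgol1 and Mki67 gained one. Ncaph (−0.34 before subtraction) and Nusap1 (−1.75) stood at the 62.1 and 63.8 percentile of span. Aurkb, in the group of shortest genes, had a larger drop than the 5 other mitotic genes of that group. What part the span trend has in the drop was not tested.

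**Figure D5:**
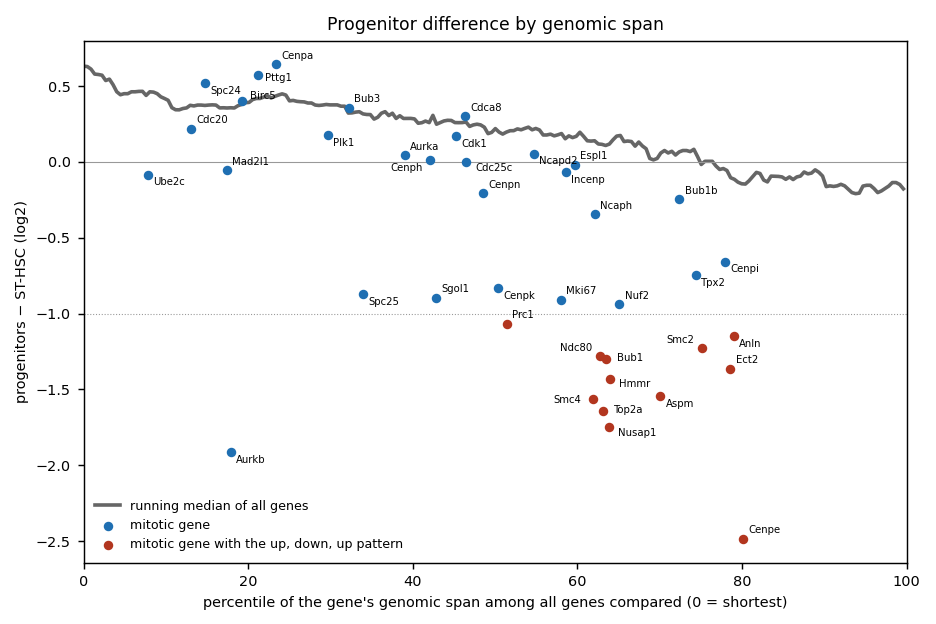
Difference between progenitors and ST-HSC (log2) of the 40 measured mitotic genes against the percentile of the gene's genomic span among all genes compared, with the running median of all genes (grey line) and the 2-fold line (dotted). Genes with the up, down, up course (red) lie beyond the 50th percentile and below the grey line. Most mitotic genes under the 50th percentile lie near that line, with Aurkb (−1.91), Sgol1 (−0.90) and Spc25 (−0.87) well below it.

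Steps were also set out by promoter motif, as a description. At the first step the 22 measured genes with both a CCAAT and a 6-base motif had a median of 1.83 (from 0.64 to 3.39), and the 6 with no match a median of 1.65 (from −0.38 to 2.40). At the progenitor step the medians were −0.23 and −0.20, and between the ends 2.25 and 2.22. Grouped instead by a 6-base motif near the start, the 23 measured genes with one had medians of 1.85, −0.87 and 1.19 at the 3 steps, with 9 of them called lower in progenitors and 13 called higher in Lin+. The 10 measured genes with no 6-base motif had medians of 1.70, −0.50 and 0.76, with 2 and 3 called. Of all genes well above background on both arrays, 8.91% were lower in progenitors and 11.7% higher in Lin+. The groups are small, and whether they differ was not tested. Cdk1, Cdc20, Ube2c and Espl1, printed above with matches of both kinds, were level from ST-HSC to progenitors, while Top2a, which also has both, dropped 3.12-fold. Nusap1, with no match, dropped further than any gene except Cenpe and Aurkb.

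Other genes of the same machinery were read from lists in which the 43 do not occur. Of 30 further kinetochore, centromere and checkpoint genes, 15 were called higher and 1 lower in ST-HSC than in LT-HSC, and 1 higher and 2 lower in progenitors than in ST-HSC. The shares of all genes were 5.81% and 9.01% at the first of these steps and 10.0% and 10.2% at the second, so the progenitor counts are not above the background. Kntc1, a subunit of the RZZ complex that brings dynein to kinetochores, was 4.06-fold higher at the first step (2.02 ± 0.21), and Ska3, of the microtubule-binding Ska complex, 3.59-fold higher (1.84 ± 0.23). Cenpt, an inner kinetochore gene, was the 1 called lower (−1.03 ± 0.20). Cenpc1, which encodes a centromere scaffold, was the largest called drop of this list in progenitors (−1.59 ± 0.22), and Cenpw the 1 gene called higher (1.02 ± 0.20). From progenitors to Lin+ 5 of the 30 were higher and 3 lower, with 14.5% and 26.4% of all genes, so the count of higher genes is near the background. Between the ends 15 were higher and 0 lower, with 16.1% and 23.2% of all genes.

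The 14 genes of condensin II and cohesin, the ring that holds sister chromatids together, gave 7 higher and 0 lower at the first step, 0 higher and 7 lower in progenitors, and 7 higher and 0 lower in Lin+, against the same shares of all genes. Ncapg2, a condensin II subunit, had steps of 1.96, −1.08 and 1.95. The cohesin core gene Smc3 had steps of 1.47, −1.59 and 1.39, and Stag2, a further cohesin subunit, 1.00, −1.64 and 1.39. Sgol2, a relative of Sgol1, had the largest measured drop (−1.79 ± 0.35). Cdca5, which encodes the cohesin stabiliser sororin, was higher at the first step (1.78 ± 0.20) and level in progenitors (0.36 ± 0.20). The list of 19 genes of mitotic entry and exit, 18 of them compared, had 4 higher at the first step, 0 called either way in progenitors, and 4 higher and 6 lower in Lin+ than in progenitors. Against 14.5% and 26.4% of all genes, the counts of this last step are near the background. Cdc25b, a phosphatase gene related to Cdc25c, was 11.6-fold higher at that last step (3.53 ± 0.20), and Fbxo5, an inhibitor of the anaphase-promoting complex, 4.1-fold higher (2.03 ± 0.20). Cdc26, a small subunit of that complex, was 3.15-fold lower (−1.66 ± 0.20).

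Marker lists differed between the fractions in their own ways. From progenitors to Lin+, 5 of 7 erythroid, 5 of 7 neutrophil and 8 of 8 B cell markers were called higher. At that step 2 neutrophil markers were called lower, Elane (−1.21) and Mpo (−1.43), both named after their values were seen. All 6 megakaryocyte markers were lower too, and 5 of the 7 T and NK cell markers were higher and 1 lower. Beside them, 14.5% of all genes were higher and 26.4% lower. From ST-HSC to progenitors 6 of 7 erythroid, 7 of 7 neutrophil and 6 of 6 megakaryocyte markers were called higher, while 0 mitotic genes were. The share of all genes called higher there was 10.0%. At the first step, where most mitotic genes were called, few markers could be compared. Called higher were 0 of 5 erythroid, 0 of 2 B cell, 0 of 4 T and NK cell and 2 of 6 neutrophil markers compared. Called lower were 2 of these erythroid and 1 of these T and NK cell markers. Of all genes, 5.81% were higher and 9.01% lower at this step. There 7 of 8 long-term stem cell markers and 6 of 6 megakaryocyte markers were lower in ST-HSC, whose summed megakaryocyte signal over the 75th percentile was 14.5 against 126 in LT-HSC. The part that the makeup of the fractions has in the mitotic gene differences was not tested.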

How the data were processed

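Total RNA of the 4 fractions was amplified from 10 ng and labelled with Cy3, per the labels' protocols. The deposited files give the linear intensity of each spot, background-subtracted and detrended within each array and not scaled between arrays, per the file headers, together with flag columns of 0 or 1. Agilent Feature Extraction 10.7.1.1 was used, per the submitters' processing notes. The headers name build mm9, and no coordinates were taken from them. The authors also deposited a table with 1 linear ratio for each probe. In 100% of 55246 probes with a single spot this ratio was, within 1%, the processed signal over an array constant (191, 217, 137 and 230), with column medians of 0.0619, 0.0630, 0.0704 and 0.0738, so its scale, centring and direction are known. It was used as an alternative.

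Probes were named by RefSeq accession (26762 of 55678, 48.1%, of 20284 genes), and the brightest probe stood for a gene. Control spots and outlier spots were left out. Differences used log2 of the processed signal less the 75th percentile of each array, with the floor of each array as the bound for dim spots (log2 −2.94, −3.39, −2.87 and −3.47). Calls are at least 2-fold. With 1 array per fraction no test was run, and precision is limited by the number of arrays. The arrays shared 1 slide and scan. Any batch of sorting, RNA preparation or labelling is not given in the sources used here and cannot be told apart from the fractions. The calls and the subtraction of the span trend (running median over 501 genes) were tested on simulated data. The mean spot signal was not used here, so normexp (offset 50, limma 3.58.1 in R 4.3.3) took the median spot and background signals. Other steps used Python 3.11.15 with numpy 2.4.6, pandas 2.3.3 and scipy 1.17.1.

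The members and gene lists were chosen with earlier results of these data known. Named are all 43 members, the sorting genes Cd34, Kit, Ly6a and Ptprc, at most 4 pathway genes each way per comparison by size of the measured difference among those called, and at most 2 genes of a marker list.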

Additional observations from a re-analysis of the deposited data

How the results depend on the processing

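No called difference of a mitotic gene changed sign under any alternative run, and the ST-HSC against LT-HSC count stayed between 35 and 38 at 2-fold. The share of all genes called higher at that step ran from 3.58% with normexp to 10.5% with spike-in scaling. The median of the mitotic genes between progenitors and ST-HSC (−0.50) was −0.76 with the percentile over detected probes, −1.13 with spike-in scaling, −0.71 with the median gene at 0 and −0.75 with no background filter or floor. Between Lin+ and progenitors (0.85) it was 1.24 with the percentile over detected probes, 1.16 with quantile normalization, 1.45 with spike-in scaling, 1.27 with the median gene at 0 and 1.26 after the span trend was subtracted. With spike-in scaling it was 2.09 at the first step and 2.54 between the ends, where the median gene at 0 gave 2.46. Lower in progenitors were 22 genes with spike-in scaling and 4 at 3-fold, beside 25.2% and 3.96% of all genes. Higher in Lin+ than in progenitors were 11 at 3-fold, beside 8.63% of all genes. The 1 gene lower in Lin+ than in LT-HSC became 0 with spike-in scaling, the median gene at 0, normexp, the span trend subtracted and at 3-fold. With the mean of all probes of a gene, Nuf2 lost its call at the first step, Tpx2 from progenitors to Lin+ and Mad2l1 between the ends. Scaling moved the median gene between progenitors and ST-HSC from 0.21 to −0.42 with spike-ins, where 4.04% of all genes were higher and 25.2% lower. From progenitors to Lin+ the shares higher and lower (14.5% and 26.4%) were 25.6% and 10.4% with spike-ins, 20.7% and 14.7% over detected probes and 21.3% and 14.1% with the median gene at 0. Subtraction of a trend over coding length was not run, because protein lengths were not used here. No paired analysis was possible because each fraction has 1 array. Cenpf, Ttk and Ncapg are limited by signal over background.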
